A study of Homo sapiens with 6 samples.

Results

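This account covers 10 genes of cellular iron handling: the receptor and transporters that bring iron in (TFRC, SLC11A2), the mitochondrial carriers (SLC25A37, SLC25A38), the ferritin subunits and an iron chaperone that serve storage (FTH1, FTL, PCBP1), the iron regulatory proteins (ACO1, IREB2) and the haem-degrading enzyme HMOX1. They were chosen by gene symbol, after matching the transcript identifiers of the deposited counts to GENCODE. Of the 10 genes, 8 matched a counted transcript, and 7 of these passed the expression thresholds described below, among 9929 transcription units (TUs) that passed in all. SLC25A38 and SLC11A2 had no counted transcript among the 37339 that could be matched and were not analysed here.

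The libraries came from K562 cells, a human chronic myelogenous leukemia line of erythroid character, grown in RPMI-1640 with serum and antibiotics and given no treatment. Nascent transcription was measured by PRO-seq, which sequences the 3′ ends of RNA still held by engaged polymerase, in 2 libraries. Steady-state RNA was measured by total RNA-seq after rRNA depletion in 4 libraries. All libraries were made from cells of the same flask, so the spread between replicates here is technical and does not include differences between cultures.

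Cells take up iron mainly as transferrin bound to the transferrin receptor, store the surplus inside ferritin, a shell of heavy (FTH1) and light (FTL) subunits, and pass the rest to mitochondria for haem and iron-sulphur clusters. When iron is scarce, the iron regulatory proteins IRP1 (encoded by ACO1) and IRP2 (IREB2) bind a hairpin called the iron responsive element (IRE). In the 5′ UTR of ferritin mRNAs this blocks translation, whereas in the 3′ UTR of TFRC mRNA it protects the message from decay. Erythroid cells depend on this system because haemoglobin synthesis consumes most of their iron.

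IREs are shown first because they divide the genes by how their mRNA is controlled. The exons of each counted transcript were searched on the transcript strand, in GRCh37, for a bulged C, 5 bases, the loop CAGTGN and 5 bases that pair with the first 5. Capitals mark the 6 bases of the loop, and each line runs 5′ to 3′ over 29 bases of the minus strand of chromosomes 11 and 3 or the plus strand of chromosome 19.
FTH1 5′ UTR, chr11:61735046-61735074: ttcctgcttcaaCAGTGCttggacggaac
FTL 5′ UTR, chr19:49468592-49468620: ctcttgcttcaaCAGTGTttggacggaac
TFRC 3′ UTR, chr3:195777850-195777878: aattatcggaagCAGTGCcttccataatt
TFRC 3′ UTR, chr3:195777446-195777474: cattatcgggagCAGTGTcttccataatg
TFRC 3′ UTR, chr3:195777381-195777409: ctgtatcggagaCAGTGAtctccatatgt
TFRC 3′ UTR, chr3:195777334-195777362: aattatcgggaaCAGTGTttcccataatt

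The ferritin elements shared 26 of 29 bases, and FTL differed from FTH1 by T1C, C4T and C18T, counted from 1 at the 5′ end as printed. Of 19032 counted mRNA transcripts, 235 (1.23%) held at least 1 match to this pattern, 16 (0.0841%) held one in the 5′ UTR and 114 (0.599%) in the 3′ UTR. TFRC, with 4, was the only transcript of the 19032 with 3 or more. No match was found in the counted transcripts of ACO1, IREB2, SLC25A37, PCBP1 and HMOX1, nor in the canonical transcripts of SLC11A2 and SLC25A38, which says only that these letters are not there.

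Counts on TUs ranged from 5732780 to 9002746 per RNA-seq library and were 6993816 and 7245632 for PRO-seq. The share that fell on the 8 genes was 0.318% in RNA-seq and 0.149% in PRO-seq. In RNA-seq, 11 of 11 erythroleukaemia markers exceeded 1 TPM, a length-scaled read count, among them HBG2 at 6287 TPM, HBE1 at 3104 TPM and GATA1 at 155 TPM. In PRO-seq, GATA1 stood at 87.8 TPM, but HBG2 at 0.221 TPM and HBE1 at 0 TPM, over counted regions of 251416 and 236308 bases, so neither globin had a ratio of the assays that passed the thresholds. Of 18 markers of other blood, liver and connective tissue cells, 16 were matched and none of these was at 0 counts. The exceptions above 1 TPM were LYZ at 334 TPM, CD3D at 109 TPM and COL1A2 at 1.36 TPM, and their part in the iron genes' values was not tested. The share of records that did not align uniquely put RNA-seq replicates 1 and 3 close together, at 28.0% and 27.9%, and likewise 2 and 4, at 24.9% and 24.5%. These are the close RNA-seq pairs named below.

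Levels are given in TPM, which scales counts by feature length and library total, so that genes can be compared within an assay. RNA-seq used the exon length, and PRO-seq used the transcript span less 500 bases at each end, where paused and decelerating polymerases collect. In steady-state RNA the order from high to low was FTL, TFRC, FTH1, PCBP1, SLC25A37, IREB2, ACO1 and HMOX1, and in each neighbouring pair every library of one gene lay above every library of the next. The FTH1 values and counts are those of a row that holds 26.6% of the canonical exon bases, described below. From FTL to ACO1 the RNA-seq level fell 153-fold. In nascent transcription the order began with FTH1 and FTL, whose PRO-seq libraries overlapped, followed without overlap by TFRC, PCBP1, SLC25A37, IREB2, ACO1 and HMOX1. The span from FTH1 to ACO1 was 95.9-fold. FTL and TFRC together supplied 85.9% of the RNA-seq counts on the 8 genes, whereas FTH1 and TFRC supplied 72.7% of their PRO-seq counts.

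**Figure D1:**
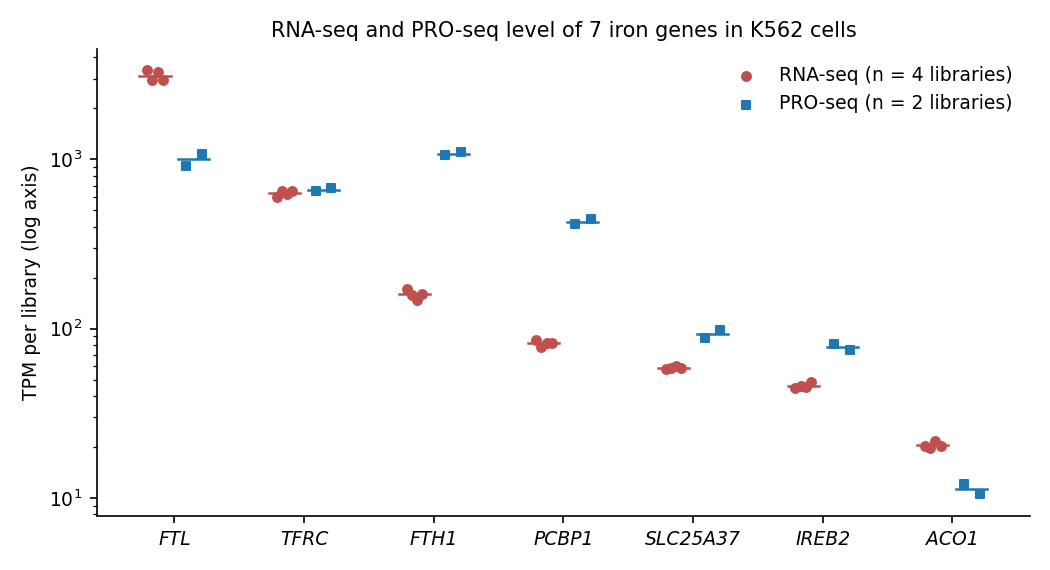
RNA-seq (circles, 4 libraries) and PRO-seq (squares, 2 libraries) level of 7 iron genes, in TPM on a log axis, with short lines at the means. FTL stood at 2934 to 3353 TPM in RNA-seq, while FTH1, PCBP1, SLC25A37 and IREB2 had every RNA-seq library below both PRO-seq libraries. A lower RNA-seq value is not particular to these genes, since the median mRNA tested had a ratio of RNA-seq to PRO-seq TPM of 0.643.

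Relative RNA half-life was taken as RNA-seq TPM over PRO-seq TPM, a unit-less ratio that assumes production and decay are balanced. It was computed where the PRO-seq level exceeded 10 TPM and the RNA-seq level exceeded 1 TPM. The paper points out that PRO-seq measures engaged polymerase, so the ratio also reflects elongation rate, an effect that appeared limited there. Its main results used published libraries, because half-lives from those varied less and lay closer to published estimates than did those from the present libraries. Each TU was tested against the median mRNA with edgeR, and log2 half-lives below are relative to it. The median mRNA had a ratio of 0.643, and log2 half-lives of the 8733 mRNAs tested had an SD of 1.68. Among the 7 genes, 3 lay above the median mRNA (FTL, ACO1, TFRC), against 40.4% of all TUs tested. Another 3 lay below it (FTH1, PCBP1, IREB2), against 50.0% of all TUs, and SLC25A37 did not pass the test at an adjusted p of 0.05. The median log2 half-life was -0.023 over the 7 genes and -0.23 over all 9929 TUs. The counts of the iron genes were thus near the background, while their values ranged from -2.12 to 2.28.

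**Figure D2:**
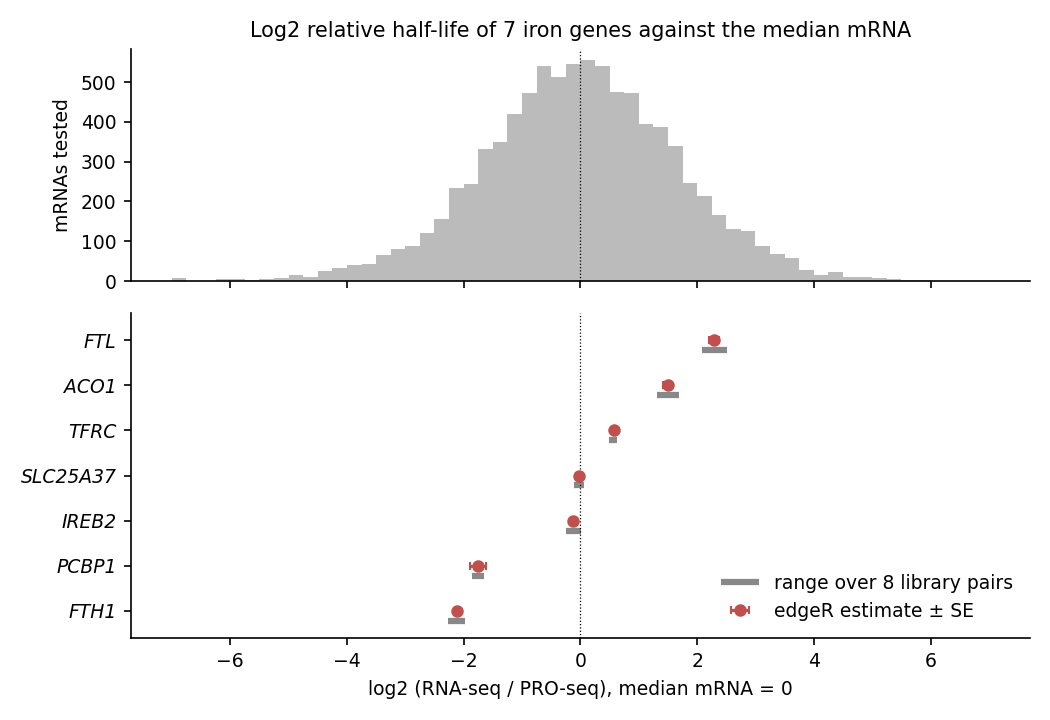
Top, histogram of log2 relative half-life over 8733 mRNAs (values beyond 7 are drawn at 7). Bottom, the edgeR estimate ± SE of 7 iron genes (points) with the range over the 8 pairs of 1 RNA-seq and 1 PRO-seq library (grey bars); FTL at 2.28 and FTH1 at -2.12 are the extremes, and SLC25A37 and IREB2 lie beside 0.

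TFRC encodes transferrin receptor 1, which binds iron-loaded transferrin at the cell surface. Its RNA-seq level was 599, 649, 627 and 655 TPM in replicates 1 to 4, and its PRO-seq level was 652 and 675 TPM in replicates 1 and 2. TFRC was thus among the highest mRNAs in both assays, at rank 209 in RNA-seq and rank 86 in PRO-seq among 18964 mRNAs. RNA-seq replicates 1 and 3 were the lower ones, the same division as in the uniquely aligned share, and the CV of 3.99% exceeded the 1.00% expected from counting alone. The log2 half-life was 0.57 (SE 0.034), or 1.48-fold above the median mRNA, with an edgeR adjusted p of 3.1e-16. The 8 single library pairs gave 0.49 to 0.62. This placed TFRC at percentile 64.0 of mRNAs, and a test for more than a 2-fold difference was not passed (adjusted p = 1.0, edgeR). The counted transcript held 4810 of the 5012 exon bases of the canonical one and all 4 IREs printed above.

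FTL, the light ferritin subunit, which aids mineralisation of iron in the shell, had the highest steady-state level of the set. Its RNA-seq level was 3353, 2941, 3275 and 2934 TPM, and its PRO-seq level was 914 and 1083 TPM. The RNA-seq libraries again fell into the pairs 1 with 3 and 2 with 4, here with 1 and 3 high, and the CV of 7.03% exceeded the counting value of 1.06%. The part of the uniquely aligned share in this split was not tested. FTL ranked 36 among 18964 mRNAs in RNA-seq and 49 in PRO-seq. Its log2 half-life was 2.28 (SE 0.087), a 4.87-fold difference from the median mRNA (edgeR adjusted p = 3.4e-21), at percentile 91.8 of mRNAs. The 8 library pairs gave 2.08 to 2.51.

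The FTL denominator rests on little sequence. The gene, on the plus strand at chr19:49468566-49470136, leaves 571 bases for PRO-seq after both ends are removed, and these held 298 counts over both libraries against 36980 exonic RNA-seq counts. Removing 500 bases in all in place of 1000 raised the log2 half-life to 3.14, and without length scaling it was 6.09. The median mRNA has 28515 bases left for PRO-seq, and 1.35% of the mRNAs tested have under 1000.

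FTH1, the heavy subunit, carries the ferroxidase site that oxidises iron for storage. Its RNA-seq level was 172, 159, 148 and 159 TPM, while its PRO-seq level was 1057 and 1107 TPM. Nascent transcription of FTH1 thus ranked 44 among 18964 mRNAs, next to FTL, but its steady-state level ranked 1064. The RNA-seq CV of 6.20% was close to the counting value of 6.03%, from 1158 counts. The log2 half-life was -2.12 (SE 0.057), 4.33-fold below the median mRNA (edgeR adjusted p = 3.3e-25), at percentile 9.58. The 8 library pairs gave -2.26 to -1.99.

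What the FTH1 row counts bears directly on that value. The counted transcript, on the minus strand at chr11:61727190-61735103, is not the canonical one: it has 2 exons of 530 bases in all. The first exon of 320 bases, which holds the IRE, is shared with the canonical transcript, and the other 210 bases are not in it. The counted exons therefore include 26.6% of the 1203 canonical exon bases, so reads from the remaining canonical exons were not assigned to this row. Counting the first exon alone as the RNA-seq length, an alternative chosen after seeing the data, gave a log2 half-life of -1.39. In PRO-seq, 41.2% of the 6914 bases counted lie within the span of the canonical transcript, and 69.4% overlap BEST1, a chloride channel gene on the opposite strand. No source used here states whether counting was strand-specific or how reads in an overlap were assigned. Whether BEST1 affected the FTH1 counts is therefore not known.

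Side by side, the ferritin subunits were far apart in steady state and close in nascent level. The log2 ratio of FTH1 to FTL was -4.29 ± 0.12 (SD, n = 4) in RNA-seq, from -4.47 to -4.20, and 0.12 ± 0.12 (SD, n = 2) in PRO-seq. All RNA-seq libraries lay below both PRO-seq libraries. The half-life of FTH1 was 21.0-fold below that of FTL, with an exact two-sided permutation p of 0.133, the smallest that 4 against 2 libraries allow. Of the 3 gene pairs planned, 2 could be compared, and the Benjamini-Hochberg adjusted p was also 0.133. With the close RNA-seq pairs summed, which leaves fewer values to permute, the permutation p was 0.333. With 500 bases removed in all, the log2 difference went from -4.40 to -5.20, and without length scaling it was -8.71. The difference compares the rows as counted, that is, 26.6% of the canonical FTH1 exon bases with 100% of those of FTL.

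Ferritin genes have many processed copies in the genome, and reads that fit several places are not assigned to a gene. Of the 75-base windows of the FTL exons, the length of an RNA-seq read, 11.7% occurred exactly elsewhere in GRCh37, as did 5.92% for the counted FTH1 exons and 11.0% for the first FTH1 exon. For SLC25A37 the share was 1.07%, for ACO1 it was 0.0136%, and for TFRC, IREB2, HMOX1 and PCBP1 it was 0. In the bases counted for PRO-seq the share lay between 0 and 4.24% in the 8 genes. The annotation lists 25 FTH1 and 16 FTL pseudogenes, of which 2 had a counted TU. FTLP10 held 0 RNA-seq counts in every library and 3 and 2 PRO-seq counts, and FTLP5 was at 0 in all 6 libraries.

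**Figure D3:**
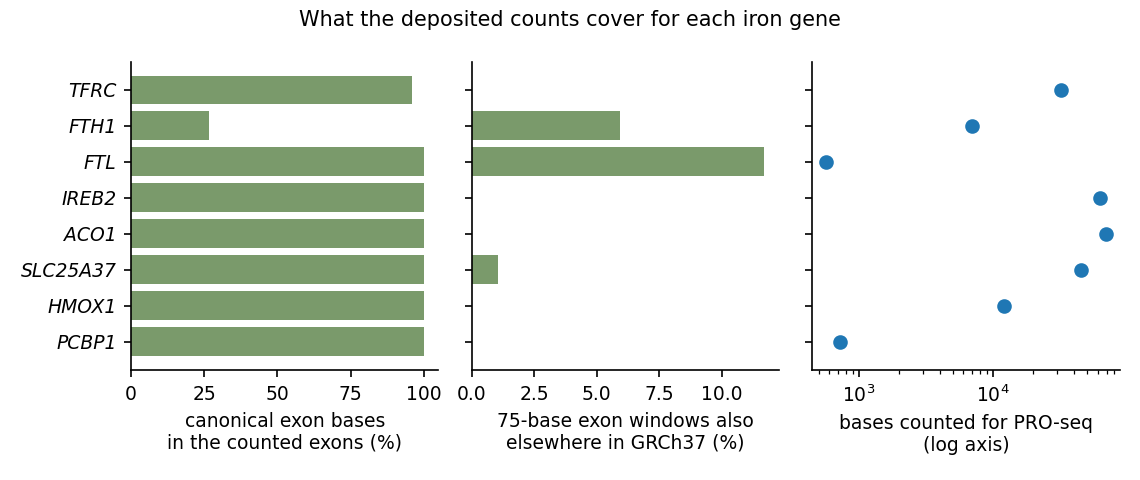
Share of canonical exon bases inside the counted exons (left, %), share of 75-base exon windows that also occur elsewhere in GRCh37 (middle, %) and bases counted for PRO-seq (right, log axis) for 8 iron genes. FTH1 stands apart on the left at 26.6%, FTL in the middle at 11.7%, and FTL and PCBP1 have the shortest PRO-seq regions, 571 and 727 bases.

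PCBP1, an RNA-binding protein that also delivers iron to ferritin, had RNA-seq levels of 85.5, 78.3, 81.8 and 81.9 TPM and PRO-seq levels of 415 and 444 TPM. Its RNA-seq and PRO-seq values did not overlap, with the nascent level higher, as it was for the median mRNA (ratio 0.643). The log2 half-life was -1.75 (SE 0.14), 3.37-fold below the median mRNA (edgeR adjusted p = 2.5e-13), at percentile 13.6. PCBP1 has a single exon of 1727 bases and no intron. The 727 bases left for PRO-seq held 163 counts, and all of these bases lie within PCBP1-AS1, an antisense transcript. Strand use and the assignment of reads in an overlap are not stated, so the effect of PCBP1-AS1 on this count is not known. Without length scaling PCBP1 stood at 2.70 and not below the median mRNA, and with 500 bases removed it stood at -1.05.

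The iron regulatory proteins come next. IREB2 encodes IRP2, whose protein is degraded when iron is plentiful. Its RNA-seq level was 44.9, 46.1, 45.0 and 48.3 TPM, and its PRO-seq level was 81.6 and 74.8 TPM. The log2 half-life was -0.13 (SE 0.052), 1.09-fold below the median mRNA, with an edgeR adjusted p of 0.024 and a range over library pairs of -0.24 to 0.0064. Without PRO-seq replicate 1 the value was -0.048 (edgeR adjusted p = 0.47), and DESeq2 gave an adjusted p of 0.069. IREB2 sat at percentile 46.6 of mRNAs, so its call rests on a small difference.

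ACO1 encodes IRP1, which is a cytosolic aconitase when it holds an iron-sulphur cluster and an IRE-binding protein when it does not. Its RNA-seq level was 20.2, 19.7, 21.7 and 20.4 TPM, and its PRO-seq level was 12.1 and 10.5 TPM. ACO1 thus had the lowest level of the 7 genes in both assays, and in PRO-seq its pooled level of 11.3 TPM lay just above the threshold of 10 TPM. The log2 half-life was 1.49 (SE 0.083), 2.81-fold above the median mRNA (edgeR adjusted p = 5.7e-17), at percentile 82.2. The 8 library pairs gave 1.32 to 1.69.

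The regulators differed in both assays. The log2 ratio of ACO1 to IREB2 was -1.17 ± 0.088 (SD, n = 4) in RNA-seq and -2.76 and -2.84 in the PRO-seq libraries, without overlap. IREB2 mRNA was thus the more abundant, by a smaller margin in steady state than in nascent transcription, and the half-life of ACO1 was 3.07-fold above that of IREB2. The exact two-sided permutation p was 0.133, the smallest possible. With the close RNA-seq pairs summed, the permutation p was 0.333.

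SLC25A37 encodes mitoferrin 1, which carries iron across the inner mitochondrial membrane for haem synthesis in erythroid cells. Its RNA-seq level was 58.0, 58.5, 60.2 and 58.3 TPM, and its PRO-seq level was 88.0 and 97.6 TPM. The RNA-seq CV of 1.73% was below the counting value of 3.33%, so the 4 libraries varied by no more than counting error. The log2 half-life was -0.023 (SE 0.052, edgeR adjusted p = 0.67), at percentile 49.3 of mRNAs. Its relation to SLC25A38, the mitochondrial glycine carrier of the same pathway, could not be measured because that gene was not matched.

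HMOX1, the inducible enzyme that opens the haem ring and frees its iron, was at the edge of detection. It held 2, 0, 0 and 0 RNA-seq counts in replicates 1 to 4 and 1 count in each PRO-seq library. The limit that a count of 0 allows, 3 counts, corresponds to 0.470, 0.739 and 0.644 TPM in RNA-seq replicates 2 to 4 and covers counting error only. The PRO-seq counts also lay under 3 counts, which would be 0.958 and 0.940 TPM. No fold is given, since both assays were under this limit, and HMOX1 was not among the genes tested. The constitutive enzyme HMOX2 stood at 128 TPM in RNA-seq and 48.4 TPM in PRO-seq.

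The mRNAs nearest to each gene in log2 RNA-seq and PRO-seq TPM together, over the 2 pooled assays, give a sense of the levels. The closest to TFRC were TUBB4B (distance 0.19) and TPT1 (0.24), a tubulin and an abundant translationally controlled protein. Those closest to FTL were RPL10A (0.15) and RPSA (0.19), both ribosomal proteins. FTH1, by its row as counted, lay nearest to ATF4 (0.30), a stress-response transcription factor, and then to C6orf47 at the larger distance of 0.55. PCBP1 lay nearest to OXLD1 (0.10) and BRD2 (0.13), ACO1 to IFI27L1 and GULP1 (0.062 and 0.063), IREB2 to MPHOSPH9 (0.014) and DEAF1 (0.038), and SLC25A37 to CDC16 (0.011) and GRWD1 (0.040).

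Around the named genes, 84 further genes of iron metabolism were examined in the same fit, of which 78 were matched and 56 passed the thresholds. Among these 56, 34 (60.7%) lay above the median mRNA, 19 (33.9%) below and 3 did not pass the test, against 45.4% above and 44.9% below of all mRNAs tested. Their median log2 half-life was 0.62. Iron-sulphur assembly and haem breakdown and transport had medians above 1, while uptake and storage had medians below 0.

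In uptake and reduction, 15 genes were matched and 7 tested, with 2 above and 5 below the median mRNA and a median of -0.62. SNX3, which helps to recycle transferrin receptor through endosomes, stood highest at 2.32 (SE 0.053), followed by SLC39A14, a zinc and iron transporter, at 1.26 (SE 0.088). The counted SLC39A14 exons held 31.5% of the canonical exon bases. The lowest were MELTF, melanotransferrin, at -3.10 (SE 0.11) and STEAP1, of the metalloreductase family, at -1.28 (SE 0.29). For MELTF this came from 3.88 TPM in RNA-seq against 52.1 TPM in PRO-seq. Another 8 genes of this list lay under the thresholds, among them the plasma carrier TF, at 0.252 TPM in RNA-seq and 0.350 TPM in PRO-seq.

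In storage and ferritin turnover, 3 of 6 genes were tested, with 1 above and 2 below and a median of -0.60. NCOA4, the receptor that delivers ferritin to lysosomes, stood at 1.86 (SE 0.043), with 327 TPM in RNA-seq and 141 TPM in PRO-seq. PCBP2, a chaperone related to PCBP1, stood at -1.35 (SE 0.075), below the median mRNA like PCBP1. HERC2, a ubiquitin ligase reported to act on NCOA4, stood at -0.60 (SE 0.040).

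All 6 sensing genes were tested, with 4 above and 2 below and a median of 0.52. Above were RBX1 at 2.37 (SE 0.068) and CUL1 at 1.07 (SE 0.051), both parts of the ubiquitin ligase that removes IRP2. SKP1, of the same ligase, stood below at -0.33 (SE 0.051), as did EPAS1, the hypoxia factor HIF-2α whose mRNA carries a 5′ IRE, at -1.35 (SE 0.087). In export and systemic control 2 of 10 genes were tested, and both lay above: HEPH, a ferroxidase, at 1.12 (SE 0.045) and SLC40A1, the iron exporter ferroportin, at 0.24 (SE 0.057). Of the 8 genes under the thresholds, HAMP failed only the RNA-seq one, at 0.677 TPM in RNA-seq against 59.8 TPM in PRO-seq. The others were under 10 TPM in PRO-seq. The list is thus described only by the genes that passed.

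Haem breakdown and transport had 9 of 11 genes tested, 6 above and 3 below, with a median of 2.03. Among the 6 above, the counted exons held 17.4% of the canonical exon bases for POR and 4.84% for SLC48A1. The highest were PGRMC1, a haem-binding membrane protein, at 3.60 (SE 0.10), and BLVRA, which reduces biliverdin, at 3.18 (SE 0.066). The lowest were SLC46A1, a folate and haem carrier, at -3.08 (SE 0.16), and PGRMC2 at -2.03 (SE 0.11). The paralogs PGRMC1 and PGRMC2 thus lay at opposite ends of this list.

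For mitochondrial iron-sulphur assembly, 16 of 20 genes were tested, 12 above and 4 below, with a median of 1.37. The highest were TMEM14C, a porphyrin transporter of erythroid mitochondria, at 3.36 (SE 0.065), and the glutaredoxin GLRX5 at 3.21 (SE 0.089), whose counted exons held 55.4% of the canonical ones. The lowest were SLC25A28, mitoferrin 2, at -2.46 (SE 0.13), and the assembly factor IBA57 at -1.40 (SE 0.12). SLC25A28 had 11.5 TPM in RNA-seq and 98.4 TPM in PRO-seq, a nascent level close to that of its paralog SLC25A37 with a lower steady-state level.

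The cytosolic assembly list had 10 of 11 genes tested, 6 above, 2 below and 2 not past the test, with a median of 1.49. CIAO2A at 2.98 (SE 0.061) and CIAO2B at 2.74 (SE 0.15), related targeting factors, were highest. CIAO2B has 1338 bases for PRO-seq and 47 counts there. NDOR1, the reductase of the pathway, was lowest at -1.43 (SE 0.093), with 51.2% of its canonical exon bases counted, and MMS19 stood at -0.18 (SE 0.066).

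Of 7 other mRNAs with a described IRE, 5 were tested, 2 above, 2 below and 1 not past the test, with a median of 0.12. Among those named, SLC40A1 stood at 0.24, CDC42BPA, a kinase with a described 3′ IRE, at -0.18 (SE 0.034) and EPAS1 at -1.35. Together with FTL and TFRC above the median mRNA and FTH1 below it, mRNAs with a described IRE lay on both sides. So did mRNAs in general, with 45.4% of all mRNAs tested above and 44.9% below. The FTH1 value is that of a row with 26.6% of the canonical exon bases.

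**Figure D4:**
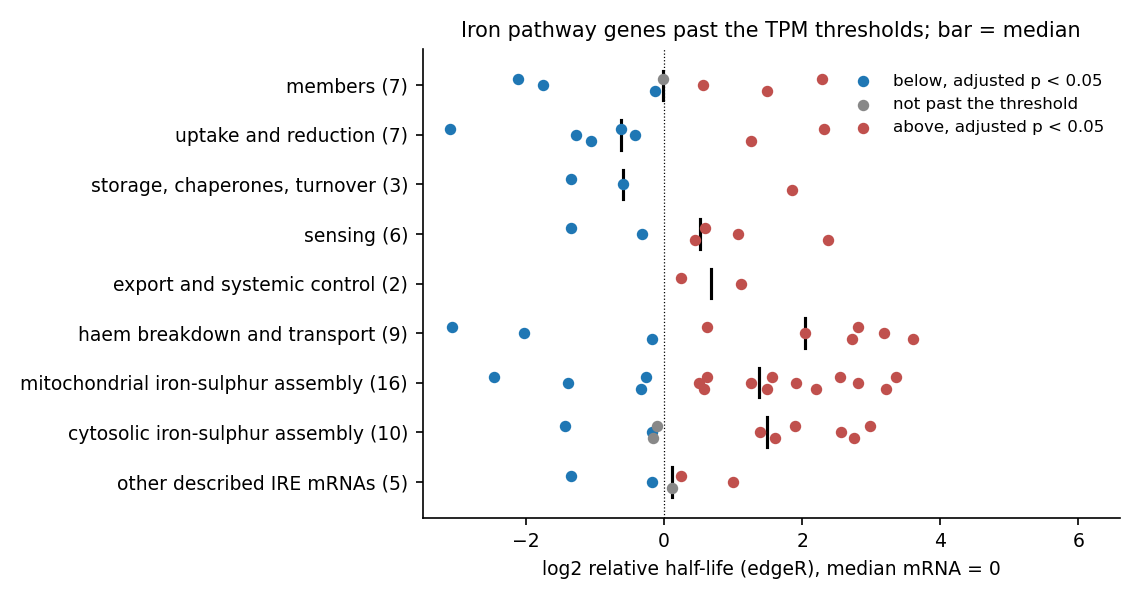
Log2 relative half-life (edgeR, median mRNA = 0) of 7 iron genes of the main set and of 8 lists of further iron genes past the thresholds, with the number tested in brackets, each point 1 gene and the bars the medians; red and blue mark genes above and below at an adjusted p under 0.05. Haem breakdown and transport, with a median of 2.03, and both iron-sulphur lists lie to the right of uptake at -0.62. In all, 2 genes appear in more than 1 list.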

How the data were processed

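For each library the authors deposited raw counts per transcript, made after trimming with Cutadapt, alignment with HISAT2 to GRCh38 and counting with HTSeq on GENCODE annotation, over exons for RNA-seq and, for PRO-seq, over the TU less its first and last 500 bases. Neither tool versions nor strand-specificity are given in the sources used here. Rows that name no TU (66.5% to 68.6% of records in RNA-seq, 86.5% and 88.6% in PRO-seq) were left out.

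Transcripts were joined by identifier to a GENCODE annotation lifted to GRCh37, from which all lengths, coordinates and sequences come. Of 42371 transcripts 88.1% matched, and the others held 2.80% to 3.69% of the counts of a library. The label of the PRO-seq counts does not say whether 500 bases were left out at each end or in all, so both were tried.

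edgeR (version 4.0.16, R version 4.3.3) was run as a quasi-likelihood test on the counts of all 6 libraries, with TMM normalization, offsets for length, centring on the median mRNA and Benjamini-Hochberg adjustment over 9929 TUs. The SE given with each log2 half-life was taken as its absolute value divided by the square root of the quasi-likelihood F statistic. DESeq2 (version 1.42.0) was an alternative. When 200 of the 9929 TUs were simulated with a log2 change of 1, edgeR recovered 92% and made 7 false calls. All other TUs were simulated at the median mRNA, with a single dispersion. In the real data 40.4% of TUs were called above and 50.0% below, so these rates do not carry over to the real calls. Gene pairs were compared by exact permutation over libraries. The sources used here describe no molecular identifiers, so counting errors treat reads as independent. Other steps used Python 3.11.15.

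The members and lists were chosen with earlier results of these data known. The genes named were the 10 members, in each list the 2 highest and 2 lowest past the test, cell type markers, ferritin pseudogenes with a counted TU, and the 2 mRNAs nearest to each member. A gene that this rule names is not reported here. TF, HMOX2, BEST1, POR, SLC48A1 and HAMP were named after their values were seen. IRE pairing allowed G with T.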

Additional observations from a re-analysis of the deposited data

Results flagged for a closer look

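For HMOX1, RNA-seq replicate 1 held 2 counts (0.331 TPM) and the other 3 libraries held 0. The gap of the highest library divided by the range is 1.0 whenever 3 of 4 libraries are at 0, so Dixon's criterion, which this exceeds, shows nothing here, and all 4 libraries lie under the limit of 3 counts.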

How the results depend on the processing

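Of 113 alternative values for the 7 genes tested, 97 kept direction and side of the threshold, 1 with no test (FTH1 by its first exon) kept the direction, 8 kept the direction without passing and 7 changed sign. With a minimum of 1 summed count and no TPM thresholds, which changes the set that defines the median mRNA, 5 genes lay above, IREB2 at 0.53 and SLC25A37 at 0.64, among 6634 TUs above and 7596 below. Centred on all TUs, IREB2 stood at 0.10 and SLC25A37 at 0.20. SLC25A37 stood at 0.10 with at least 10 counts and between -0.082 and 0.037 when 1 library was left out, above 0 without PRO-seq replicate 2, and PCBP1 at 2.70 without length scaling. A 2-fold difference was passed by 2138 TUs above and 2898 below. Leaving out 1 library gave 3872 to 4005 TUs above and 4787 to 4947 below, with 3 genes above in each case and 2 or 3 below, IREB2 losing its call without RNA-seq replicate 3 (adjusted p = 0.050) or PRO-seq replicate 1 (0.47). IREB2 also lost it with at least 10 counts (0.90), with close RNA-seq pairs summed (0.055) and under the 2-fold test. The half-life difference of FTH1 minus FTL ran from -4.49 to -4.31 and that of ACO1 minus IREB2 from 1.58 to 1.66 when 1 library was left out. Without FTH1, chosen after seeing the data, 3 genes lay above and 2 below. Replicate numbers are shared by RNA-seq and PRO-seq, but deviations of same-numbered libraries had a correlation of -0.023 over 9929 TUs. With a replicate block 3 genes lay above and 2 below (IREB2 adjusted p = 0.052), with 3920 TUs above and 4860 below. The alternatives for SLC25A37 minus SLC25A38 were not run. Depth limits HMOX1 most, and in PRO-seq PCBP1 (163 counts) and FTL (298 counts).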
